A study of Homo sapiens with 12 samples.

Results

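The second of 2 siRNAs against SOX10 (siSOX10_2) was set against a control siRNA (siCNTL) in A2058, an established human melanoma cell line of cutaneous origin. These are 6 of the 12 libraries of the study, 3 with siSOX10_2 and 3 with siCNTL. Libraries of cells given the other SOX10 siRNA (siSOX10_1) and of untreated cells were used only where they are named. All were A2058 cells, and the siRNAs were transfected with a lipid reagent at 12.5 nM for 96 hours before RNA extraction. The labels give each replicate number as a batch, so each of batches 1, 2 and 3 holds 1 siSOX10_2 library and 1 siCNTL library, and the libraries were paired by batch. The labels do not say if the batches were separate cultures, and p-values then measure only how far these libraries spread. The labels name no sequence for any of the siRNAs.

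Values are TPM, abundances per transcript length that add up to a fixed total in each library. Read counts cannot be had from them, and the depth of the libraries is unknown. Of 61587 genes listed, 14776 reached 1 TPM in at least 3 of the 6 libraries and were tested. A log2 difference is siSOX10_2 minus siCNTL on the log2(TPM + 1) scale, averaged over the 3 batches and given with its standard error, and it understates the change of genes at low TPM. Genes were called at a limma adjusted p under 0.05 over all genes tested, and "rose" and "fell" are used of called genes alone. Between 14318 and 15333 genes reached 1 TPM in the siSOX10_2 libraries, and between 14042 and 14351 in the siCNTL libraries. The first principal component of the 6 libraries (61.0% of the variance) separated siSOX10_2 from siCNTL, and the second (18.1%) set batch 3 of both groups apart from batches 1 and 2.

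SOX10 encodes a neural crest transcription factor. From the neural crest descend melanocytes and Schwann cells. In the melanocyte lineage it acts with MITF on the genes of pigment production, and melanoma cells can lose this pigmented state for an undifferentiated one marked by AXL and inflammatory cytokines. The title of the series also names IRF1, ITGA3, EPHA2 and FAK, which is the focal adhesion kinase that PTK2 encodes. The question here is which functions changed with siSOX10_2 and how far each change held from batch to batch.

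Promoters of 4 genes that the results turn on are shown so that a reader can see the letters that factors of these functions are known to bind. They are the 250 bases before the start of each gene in the RefSeq promoter table (GRCh38.p14), written along the gene's own strand, with motif matches in capitals. TRPM1, a cation channel of melanocytes, lies at chr15:31161161-31161410 on the minus strand and holds the M-box letters CATGTG, a form bound by MITF, read on the opposite strand and starting 8 bases before the gene. GJB1, which forms gap junctions in the myelin of Schwann cells, lies at chrX:71214989-71215238 on the plus strand and holds the SOX core letters ACAAT at 2 places, 247 and 145 bases before the gene. CXCL8, which encodes interleukin 8, lies at chr4:73740319-73740568 on the plus strand and holds the NF-kB letters GGANTTTCC (N is any base) 91 bases before the gene. BST2, an interferon-stimulated surface protein, lies at chr19:17405631-17405880 on the minus strand and holds 2 overlapping matches to the interferon-stimulated response element (GAAA, any 2 bases, GAAA), 130 and 124 bases before the gene.
TRPM1: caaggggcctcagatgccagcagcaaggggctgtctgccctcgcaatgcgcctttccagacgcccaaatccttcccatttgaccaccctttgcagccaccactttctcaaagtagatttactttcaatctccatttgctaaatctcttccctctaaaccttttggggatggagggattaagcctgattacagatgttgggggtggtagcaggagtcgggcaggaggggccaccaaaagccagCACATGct
GJB1: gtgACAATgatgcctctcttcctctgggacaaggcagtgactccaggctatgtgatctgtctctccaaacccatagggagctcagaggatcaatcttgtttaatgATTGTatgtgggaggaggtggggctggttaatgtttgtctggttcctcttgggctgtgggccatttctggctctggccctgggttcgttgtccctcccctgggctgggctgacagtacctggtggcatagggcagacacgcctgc
CXCL8: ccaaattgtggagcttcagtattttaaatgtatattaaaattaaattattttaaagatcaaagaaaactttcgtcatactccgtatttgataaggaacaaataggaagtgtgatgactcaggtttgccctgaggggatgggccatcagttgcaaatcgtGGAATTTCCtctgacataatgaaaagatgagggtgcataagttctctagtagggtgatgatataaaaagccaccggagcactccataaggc
BST2: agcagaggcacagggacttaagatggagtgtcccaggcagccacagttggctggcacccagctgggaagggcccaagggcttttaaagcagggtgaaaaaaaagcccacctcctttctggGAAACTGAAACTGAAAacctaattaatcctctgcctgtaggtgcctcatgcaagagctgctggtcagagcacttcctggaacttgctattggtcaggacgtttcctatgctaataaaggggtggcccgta

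Both strands were searched for each motif, and none of the motifs holds the letters of another. The M-box letters were in 6 of 10 promoters of the melanin synthesis list and in 9.54% of all 27305 promoters in the table. The NF-kB letters were in 6 of 11 promoters of the NF-kB cytokine list, against 1.47% of all. The response element was in 18 of 27 promoters of type I interferon-stimulated genes, against 3.07% of all. The SOX core was in 4 of 11 promoters of Schwann cell and glial genes (1 of 5 among called members), in 14.6% of those of tested genes and in 25.2% of all. Letters bound by TEAD proteins (GGAATG) were in 5 of 18 promoters of YAP and TAZ targets, against 11.9% of all. Letters bound by AP-1 (TGANTCA) were in 0 of 11 promoters of metalloproteinases and their inhibitors, against 6.596% of all. The promoters printed above were taken from list members that hold a match to the motif of their list. They therefore do not show how common a match is, which only the shares given here describe. The 1 called glial member with a SOX core is GJB1, the one printed. Motif matches are descriptions of these windows and were not tested as binding sites.

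SOX10 (chromosome 22, 37970686 to 37987422, minus strand, GRCh38) had 11.8, 8.95 and 4.24 TPM in batches 1, 2 and 3 with siSOX10_2, against 30.0, 28.6 and 36.8 TPM with siCNTL. The targeted gene was therefore lower in every batch, with no overlap between the groups, and lowest in batch 3. What was left was 39.4%, 31.3% and 11.5% of siCNTL in batches 1, 2 and 3, and the log2 difference was -1.90 ± 0.30 (adjusted p = 0.00278). SOX10 overlaps POLR2F, a subunit shared by the RNA polymerases that is read from the plus strand (37952607 to 38041915). POLR2F had 440, 460 and 476 TPM with siSOX10_2 and 649, 620 and 582 TPM with siCNTL. The sources used here do not state if counting was stranded, and reads of the overlapping genes may be shared.

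Of the other genes in the title, 3 changed alike in every batch and IRF1 did not. ITGA3 (chromosome 17, 50055968 to 50090481) encodes a laminin-binding integrin chain. It had 143, 150 and 167 TPM with siSOX10_2 and 4.26, 6.39 and 5.54 TPM with siCNTL. Its log2 differences by batch lay between 4.35 and 4.77. EPHA2 (chromosome 1, 16124337 to 16156069), an ephrin receptor kinase, had 39.8, 34.8 and 52.1 TPM with siSOX10_2, against 9.14, 9.04 and 10.4 TPM with siCNTL (log2 difference 2.02 ± 0.18, adjusted p = 7.73e-05). PTK2 (chromosome 8, 140657900 to 141002216) had 127, 136 and 151 TPM with siSOX10_2 and 68.2, 79.8 and 92.5 TPM with siCNTL. Its difference was small but even, at 0.89, 0.76 and 0.70 in batches 1, 2 and 3 (adjusted p = 0.00165). IRF1 (chromosome 5, 132440440 to 132508719), an interferon regulatory factor that overlaps an antisense transcript, had 102, 82.9 and 63.3 TPM with siSOX10_2 and 8.68, 39.3 and 5.79 TPM with siCNTL. The groups did not overlap, but the siCNTL library of batch 2 stood above the other two, so the difference by batch was 3.41, 1.06 and 3.24. The mean of 2.57 ± 0.58 passed narrowly (adjusted p = 0.0494). The call was lost without batch 1 (adjusted p = 0.183), without batch 3 (0.410) and with a filter at 5 TPM (0.0611).

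**Figure D1:**
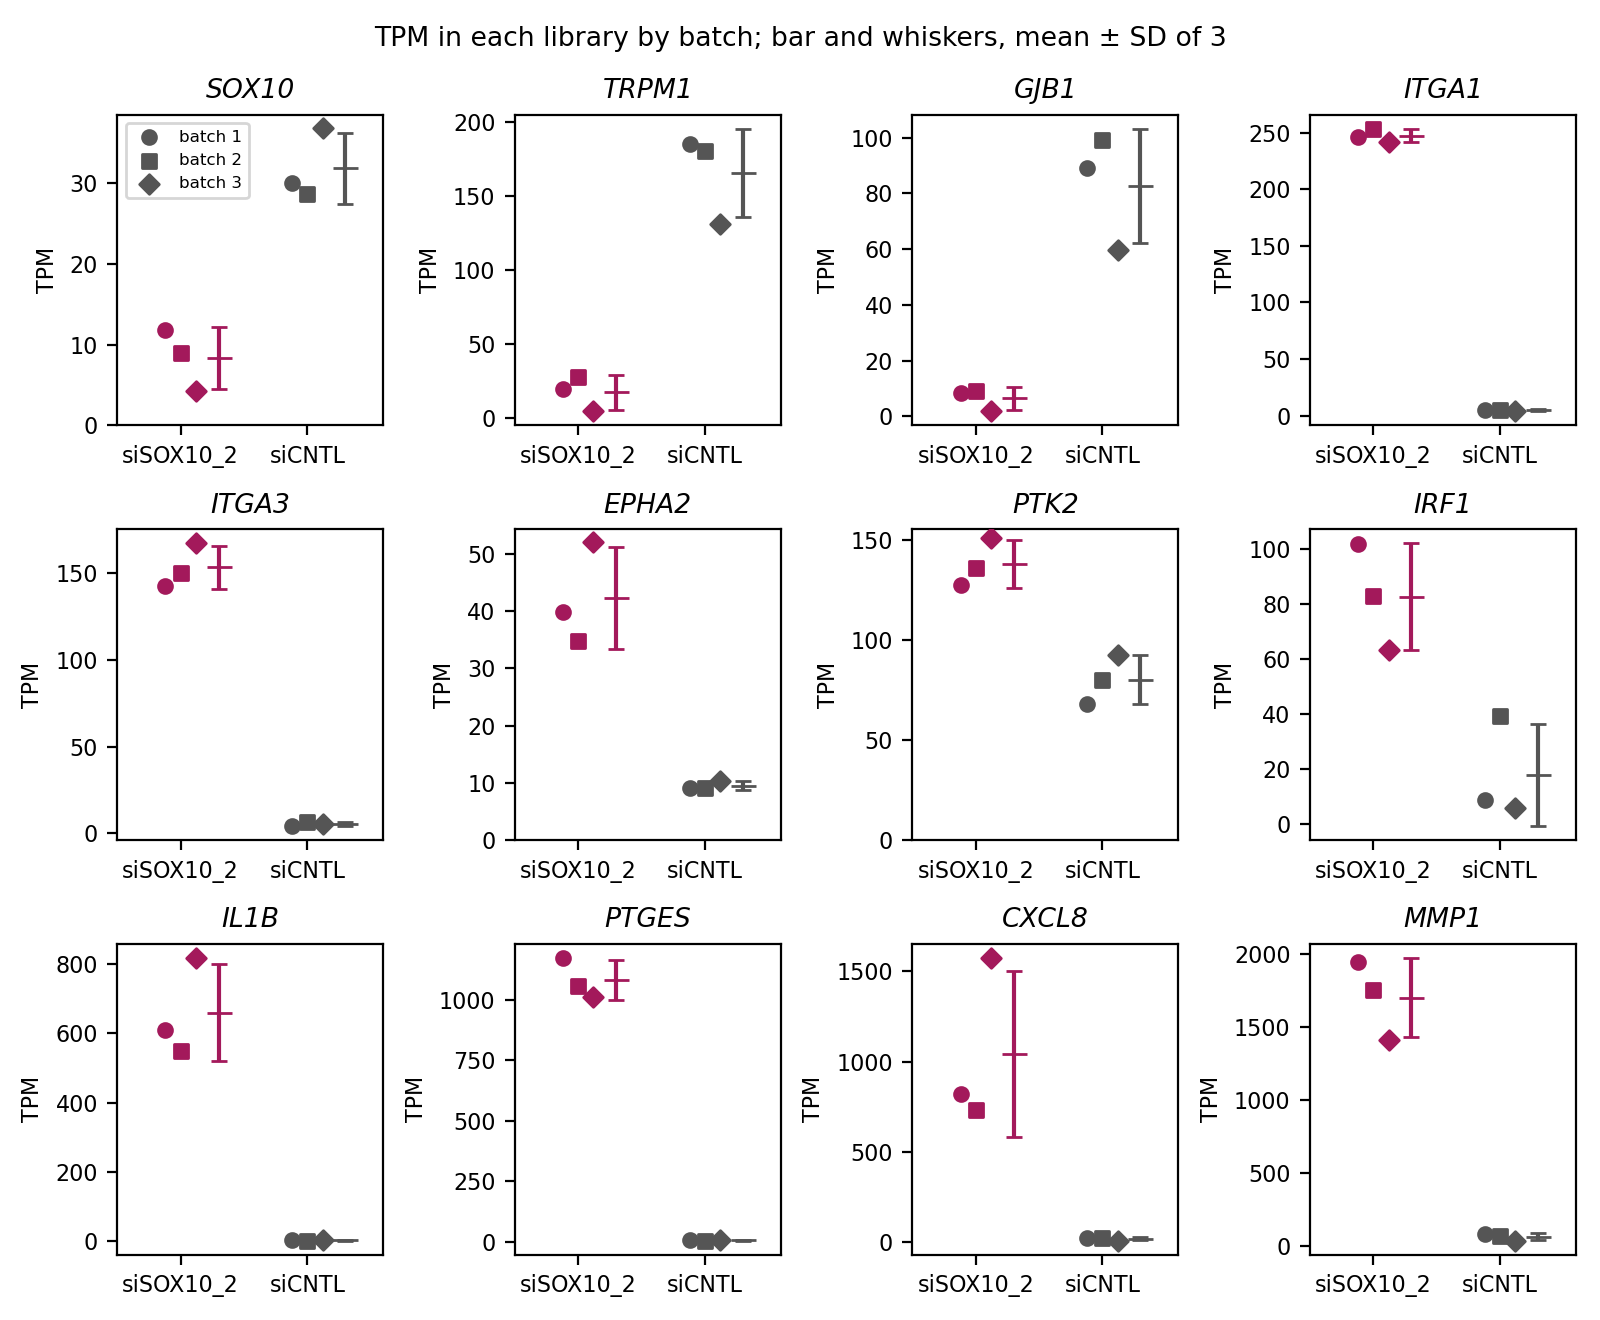
TPM (vertical axis, linear from 0) of 12 genes in each siSOX10_2 and siCNTL library, with markers for batches 1, 2 and 3 and the mean ± SD of 3 libraries beside them. The groups do not overlap in any of the 12 genes, all of which were called. Among all genes tested, every siSOX10_2 library lay above every siCNTL library in 26.8% and below in 15.2%. The batch 2 siCNTL library of IRF1 stands at 39.3 TPM, above 8.68 and 5.79 TPM in the other batches.

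Across all genes, 4566 of 14776 (30.9%) were called, 2827 higher (19.1%) and 1739 lower (11.8%). The counts given for each gene list below are to be read against these shares. More genes were called higher than lower, but not under other scalings. The median over all genes shifted by -0.13 with median-of-ratios scaling and by -0.14 with quantile normalization, and calls were then 2069 higher and 2297 lower, and 2142 higher and 2242 lower. Of the main calls, 3807 were also made under median-of-ratios scaling and 3823 under quantile normalization, with the same sign in each case. By size, 1302 genes rose and 728 fell by 2-fold or more on the log2(TPM + 1) scale. A log2 difference of 4 or more was reached by 41 genes that rose and by 0 that fell. The largest were IL1B (8.69 ± 0.19), C15orf48 (7.37 ± 0.33) and PTGES (7.05 ± 0.13) among those that rose, and FABP7 (-3.70 ± 0.16), CAPN3 (-3.68 ± 0.46) and GJB1 (-3.67 ± 0.25) among those that fell, all with a mean of at least 5 TPM. The call of CAPN3 was lost without batch 2 (adjusted p = 0.166).

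Nearly all calls had 1 direction in the 3 batches, namely 2826 of the 2827 genes that rose and 1738 of the 1739 that fell. Among all genes tested, 37.2% were higher in every batch and 22.8% lower in every batch. A test paired by batch seldom calls a gene whose batches disagree, so the agreement among calls cannot show how far they hold. Genes that rose had median log2 differences of 1.04, 0.89 and 0.92 in batches 1, 2 and 3, and genes that fell had -0.79, -0.87 and -1.02. Many of the called differences were under 2-fold. A 2-fold difference in all 3 batches was reached by 733 of the genes that rose and 376 of those that fell, and in none of the batches by 865 and 629.

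Calls made in 2 batches were then read in the batch left out. Its libraries took no part in the fit, but they counted in the filter that set which genes were tested. Of the genes called higher without batch 1, 97.3% were higher in batch 1, where 60.8% of all genes were. Without batch 2 the share was 97.8% in batch 2 (57.7% of all genes), and without batch 3 it was 92.0% in batch 3 (54.2% of all genes). Of genes called lower in the other batches, 97.4%, 90.5% and 94.6% were lower in batches 1, 2 and 3, where 39.1%, 42.2% and 45.7% of all genes were. Without batch 1, 2696 genes were called, 2593 of which were among the 4566, against 3777 without batch 2 and 4771 without batch 3.

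**Figure D2:**
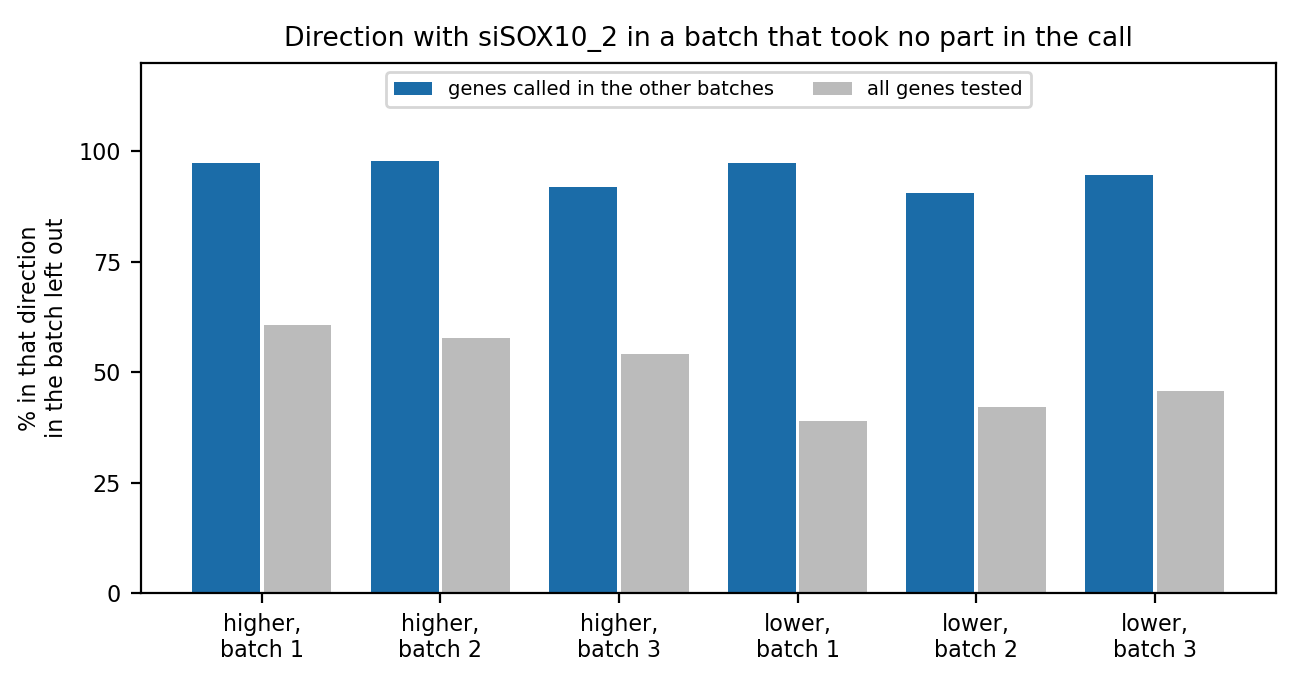
Share of genes (vertical axis, %) that went in the called direction in a batch left out of the fit, though not of the filter for genes tested. Bars are for genes called in the other batches (blue) and for all genes tested (grey), by direction and batch. The blue bars stand between 90.5% and 97.8%, and the grey bars between 39.1% and 60.8%.

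A further 9 genes differed by 2-fold or more the same way in every batch without being called, 3 higher and 6 lower, and in all 9 the difference was largest in batch 3. Among the called genes of this kind, batch 3 was the largest of the 3 in 591 of 1109. Those given here are members of the lists described, and were chosen after their values were seen. MITF, the master transcription factor of melanocytes, had 102, 86.4 and 29.0 TPM with siSOX10_2 and 321, 349 and 465 TPM with siCNTL (adjusted p = 0.0771). DCT, an enzyme of melanin synthesis, had 912, 878 and 118 TPM with siSOX10_2 and 3750, 4144 and 2830 TPM with siCNTL (adjusted p = 0.106). Both were far lower with siSOX10_2 in every batch, and the size of the difference varied too much between batches to pass. Of the same kind were DUSP6, a MAPK phosphatase (log2 differences 1.70, 1.35 and 3.56), the early response gene IER3 (1.57, 1.26 and 3.43) and the stress response gene NDRG1 (1.83, 3.61 and 5.06).

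Genes of melanin synthesis and of the melanosome matrix had the lowest median of the 57 lists. Of 12 tested members 10 fell and 1 rose, with a median log2 difference of -2.98, against 0.12 over all genes. PMEL, which forms the fibrils of the melanosome, had 599, 593 and 103 TPM with siSOX10_2, against 3963, 4187 and 1825 TPM with siCNTL (log2 difference -3.23 ± 0.34, adjusted p = 0.0055). SLC24A5, an ion exchanger of the melanosome, had 7.54, 7.63 and 3.34 TPM with siSOX10_2 and 84.5, 74.3 and 31.9 TPM with siCNTL (-3.12 ± 0.18, adjusted p = 7.93e-06). Neither gene overlapped between the groups (15.2% of all genes tested lay wholly below siCNTL), and SLC24A5 fell about equally in the 3 batches. TRPM1, whose promoter is printed above, had 19.6, 27.1 and 4.27 TPM with siSOX10_2, against 185, 180.3 and 131 TPM with siCNTL (-3.50 ± 0.43, adjusted p = 0.00762). Tyrosinase (TYR, named after its values were seen) had 231, 201 and 48.5 TPM with siSOX10_2 and 1091, 1159 and 965 TPM with siCNTL (adjusted p = 0.0392). The calls of TRPM1 and TYR were lost without batch 1 (adjusted p = 0.0547 and 0.0830), and that of TYR also without batch 2 (0.285). The member that rose was MLPH, the melanophilin that links melanosomes to myosin, at 124, 140.2 and 59.3 TPM with siSOX10_2 and 63.7, 75.1 and 25.6 TPM with siCNTL. It was higher in every batch, but its groups overlapped and without the batch in the model it was not called (adjusted p = 0.176).

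As for SOX10, less was left of several of these genes in batch 3 than in the other batches (those given here were chosen after their values were seen). The TPM of TYR, DCT, PMEL, MLANA, TRPM1 and CAPN3 with siSOX10_2 was between 10.6% and 24.3% of siCNTL in batches 1 and 2, and between 3.26% and 5.65% in batch 3. For MITF it was 31.8%, 24.8% and 6.24% in batches 1, 2 and 3. The glial gene S100B kept 19.3%, 22.1% and 12.7%. SLC24A5 did not share this order, with log2 differences of -3.32, -3.13 and -2.92 in batches 1, 2 and 3.

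**Figure D3:**
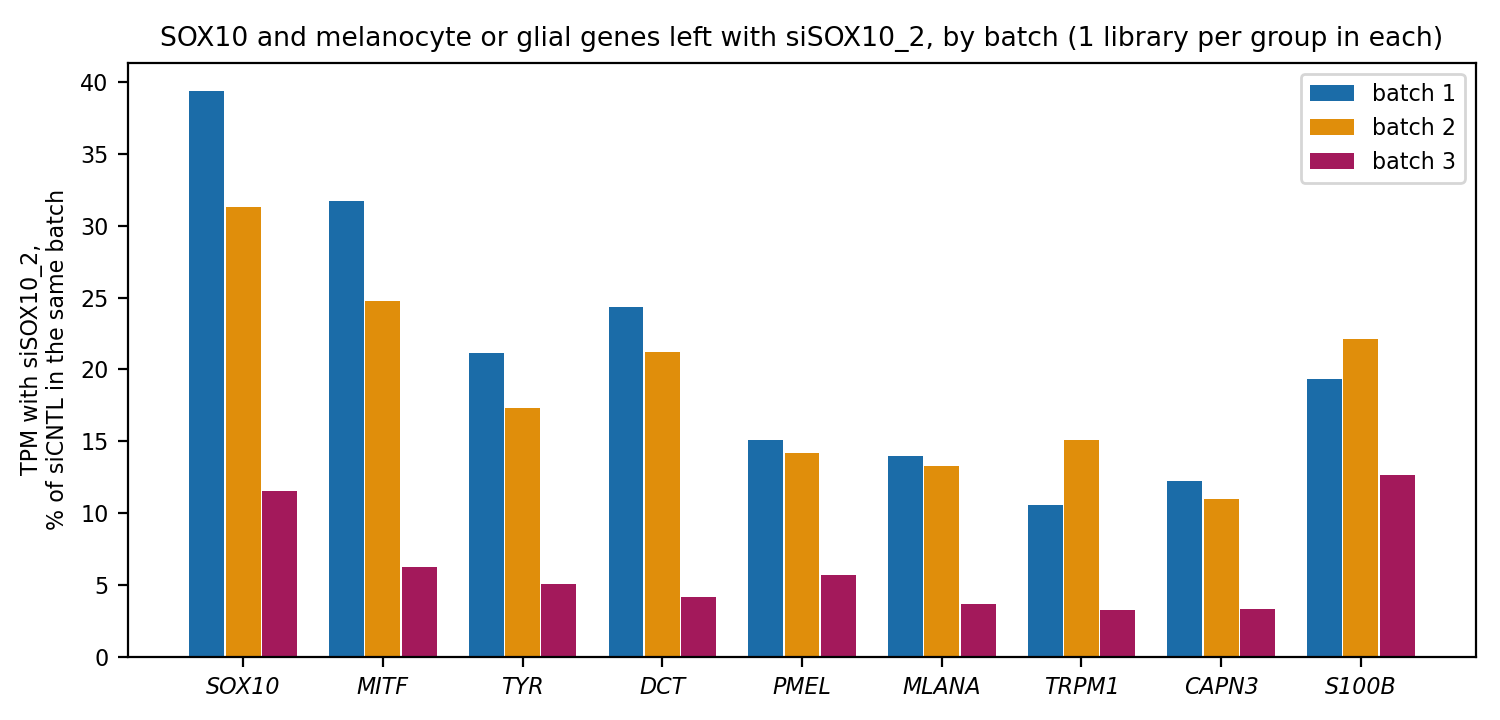
TPM left with siSOX10_2 as a percent of siCNTL in the same batch (vertical axis, linear from 0) for SOX10, 7 melanocyte genes and the glial gene S100B, with 1 bar for each of the 3 batches. The batch 3 bar is the lowest for each gene, at 11.5% for SOX10 and between 3.26% and 12.7% for the others.

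The machinery that moves and builds melanosomes also fell in part. Of 24 members 10 fell and 3 rose. RAB38, a small GTPase that routes pigment enzymes to melanosomes, had 100.4, 84.6 and 49.1 TPM with siSOX10_2, against 435, 440.2 and 534 TPM with siCNTL (-2.63 ± 0.26, adjusted p = 0.00126). Its partner RAB32 fell by 1.85 and RAB27A, which recruits melanophilin, by 1.26 on the log2 scale, each by a similar amount in the 3 batches. The members that rose were MLPH, SLC7A11 (a cystine transporter) and SYTL2. The call of SLC7A11 was lost without batch 1 (adjusted p = 0.0773) and without batch 2 (0.0568). Of 17 other melanocyte lineage genes 13 fell, with a median of -1.60. RXRG, a retinoid receptor of pigmented melanoma cells, had 4.06, 4.63 and 1.47 TPM with siSOX10_2 and 40.0, 48.5 and 39.1 TPM with siCNTL (-3.39 ± 0.24, adjusted p = 2.28e-05). CDK2, a cell cycle kinase that MITF is known to regulate in melanoma cells, had 142, 158 and 93.4 TPM with siSOX10_2, against 417, 464 and 475 TPM with siCNTL (-1.81 ± 0.17, adjusted p = 1.62e-04). The member that rose was TFAP2A, a neural crest transcription factor, at 66.2, 60.2 and 76.9 TPM with siSOX10_2 and 19.7, 23.5 and 28.1 TPM with siCNTL. TFAP2A kept its direction and its call in every alternative run.

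Schwann cell and glial genes, the other branch of SOX10 biology, fell in 10 of 19 tested members and rose in 2, with a median of -1.23. FABP7, a brain fatty acid binding protein, had 13.6, 12.8 and 1.75 TPM with siSOX10_2 and 192, 181 and 33.8 TPM with siCNTL (adjusted p = 1.13e-06). Its level differed several-fold between batches within each group, while the difference between the groups was even, at -3.73, -3.72 and -3.66. GJB1 had 8.35, 9.23 and 1.79 TPM with siSOX10_2, against 89.1, 99.1 and 59.7 TPM with siCNTL (adjusted p = 3.24e-05). S100B, a calcium-binding protein of glia and melanocytes, had 209.6, 214.3 and 79.0 TPM with siSOX10_2 and 1084, 970.1 and 623 TPM with siCNTL. ERBB3, a neuregulin receptor that Schwann cells and melanocytes share, had 20.2, 20.2 and 6.10 TPM with siSOX10_2, against 57.3, 74.2 and 36.0 TPM with siCNTL (-1.89 ± 0.20, adjusted p = 2.18e-04). The members that rose were NRG1, a ligand of ERBB3, and NGFR, the neurotrophin receptor of neural crest cells. NRG1 had 7.81, 5.12 and 13.3 TPM with siSOX10_2 and 1.52, 1.70 and 1.66 TPM with siCNTL (1.81 ± 0.29, adjusted p = 0.00178). NGFR had 4.13, 5.03 and 6.29 TPM with siSOX10_2 and stayed under 1 TPM with siCNTL.

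Genes of the undifferentiated melanoma state rose in 17 of 20 tested members and fell in 0, with a median of 2.34 and batch medians of 2.23, 1.73 and 2.68. Between 13 and 18 of them were called without any 1 batch. AXL, a receptor tyrosine kinase linked to drug tolerance, had 32.7, 30.1 and 61.1 TPM with siSOX10_2 and 4.71, 6.86 and 4.79 TPM with siCNTL (2.66 ± 0.27, adjusted p = 2.37e-04). FOSL1, an AP-1 subunit, had 351, 331 and 635 TPM with siSOX10_2, against 35.2, 39.9 and 24.3 TPM with siCNTL (3.65 ± 0.37, adjusted p = 0.00459). CD44, a hyaluronan receptor, had 2432, 2376 and 2993 TPM with siSOX10_2 and 317, 319 and 394 TPM with siCNTL (2.92 ± 0.10, adjusted p = 4.12e-07). CD44 changed by nearly the same amount in each batch, and FOSL1 and AXL most in batch 3. SNAI2, a zinc finger factor of mesenchymal transition that melanocytes also use, fell to 8.03, 10.7 and 6.70 TPM with siSOX10_2, against 32.0, 36.8 and 31.9 TPM with siCNTL. N-cadherin (CDH2) rose, with a difference of 2.00 ± 0.22 (adjusted p = 2.22e-04).

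Integrins changed in both directions. Of 19 tested chains 8 rose (42.1%, against 19.1% of all genes) and 3 fell (15.8%, against 11.8%), with a median of 0.27. ITGA1, a collagen receptor chain, had 246, 253 and 242 TPM with siSOX10_2 and 4.64, 5.29 and 3.75 TPM with siCNTL (5.49 ± 0.16, adjusted p = 1.48e-07). ITGA11, another collagen receptor chain, had 17.6, 20.4 and 16.9 TPM with siSOX10_2 and under 1 TPM with siCNTL. ITGA5, the fibronectin receptor chain, had 188, 191 and 343 TPM with siSOX10_2, against 24.0, 36.3 and 37.6 TPM with siCNTL (2.81 ± 0.17, adjusted p = 9.03e-06). Their shared partner ITGB1 (named after its values were seen) had 493, 582 and 628 TPM with siSOX10_2 and 159.8, 181 and 214.2 TPM with siCNTL. The chains that fell were ITGB3 (-0.79 ± 0.16, adjusted p = 0.00574), ITGB8 (-1.28 ± 0.25, adjusted p = 0.00513) and the laminin receptor chain ITGA6 (-0.66), whose call was lost in 5 alternatives. Of 32 focal adhesion proteins 17 rose and 3 fell, and 15 to 17 rose without any 1 batch. Talin (TLN1), which couples integrins to actin, had 107, 94.6 and 106 TPM with siSOX10_2 and 24.5, 26.8 and 27.4 TPM with siCNTL (1.92 ± 0.14, adjusted p = 3.13e-05). NEDD9, a scaffold of FAK signalling, fell to 38.4, 37.4 and 21.4 TPM with siSOX10_2, against 81.8, 96.9 and 83.5 TPM with siCNTL. The adaptor LPXN and LIMS1 fell as well, but the call of LIMS1 was lost without batch 3 (adjusted p = 0.0694). Of 12 Eph receptors and ephrins 3 rose (25%, against 19.1% of all genes), but only EPHA2 kept its call in every alternative. The calls of EFNB1 and EFNB2 were lost in 13 and 10 of them.

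Tetraspanins, membrane organisers that bind integrins, split. Of 18 tested members 6 rose (33.3%, against 19.1% of all genes) and 7 fell (38.9%, against 11.8%). CD82, described as a suppressor of metastasis, had 418, 501 and 854 TPM with siSOX10_2, against 57.8, 81.3 and 94.5 TPM with siCNTL (2.87 ± 0.14, adjusted p = 2.16e-06). TSPAN10, a pigment cell tetraspanin, had 5.08, 4.99 and 1.58 TPM with siSOX10_2 and 33.8, 43.9 and 17.6 TPM with siCNTL (-2.76 ± 0.20, adjusted p = 2.90e-05). CD63, a tetraspanin of melanosomes and lysosomes named after its values were seen, fell by nearly the same amount in each batch (-1.02, -1.01 and -0.99).

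Matrix genes changed in both directions. Of 24 matricellular proteins and crosslinking enzymes 16 rose and 4 fell, with a median of 0.93. Fibronectin (FN1) had 1416, 1165 and 614 TPM with siSOX10_2, against 150.4, 169 and 121 TPM with siCNTL (2.78 ± 0.17, adjusted p = 1.78e-05). LOXL2, a collagen crosslinking oxidase, had 331, 330.3 and 419 TPM with siSOX10_2 and 19.5, 24.9 and 24.6 TPM with siCNTL (3.91 ± 0.14, adjusted p = 4.12e-07). Tissue transglutaminase (TGM2) rose by 4.42 ± 0.21. The members that fell were FBLN5, SPP1 (osteopontin), CCN3 and PLOD3. The call of CCN3 was lost whichever batch was left out. SPP1 fell by 1.28, 1.25 and 1.24 in batches 1, 2 and 3, and had 202, 197 and 75.6 TPM with siSOX10_2 and 490.3, 469 and 179.8 TPM with siCNTL. Both groups were lowest in batch 3, and without the batch in the model it was not called (adjusted p = 0.161). Of 13 collagen genes 7 rose and 1 fell (COL9A3, which lost its call without the batch in the model). COL1A1 had 11.5, 9.41 and 7.96 TPM with siSOX10_2 and under 0.1 TPM with siCNTL. Among laminins and other basement membrane genes 8 of 18 rose and 4 fell. LAMB3, a chain of laminin 332, had 47.2, 38.5 and 80.4 TPM with siSOX10_2 and 0.985, 2.05 and 1.31 TPM with siCNTL (4.48 ± 0.28, adjusted p = 1.60e-05). LAMA4 fell to 57.6, 49.6 and 22.3 TPM with siSOX10_2, against 153, 147 and 95.5 TPM with siCNTL. Only 4 of the 8 basement membrane genes that rose were called without batch 1.

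Enzymes that cut the matrix and their inhibitors changed in both directions. Of 21 metalloproteinases and inhibitors 8 rose (38.1%, against 19.1% of all genes) and 3 fell (14.3%, against 11.8%). The collagenase MMP1 had 1945, 1756 and 1411 TPM with siSOX10_2 and 84.1, 68.1 and 37.8 TPM with siCNTL (4.79 ± 0.14, adjusted p = 1.73e-07). The gelatinase MMP9 had 66.0, 56.1 and 85.1 TPM with siSOX10_2, and with siCNTL it was listed at 0, 0 and 0.385 TPM. The inhibitor TIMP1 was at 2911, 2568 and 1998 TPM with siSOX10_2 and 398, 407 and 358 TPM with siCNTL (2.67 ± 0.12, adjusted p = 1.24e-06). TIMP2 fell by 1.13 ± 0.18 and the neutrophil collagenase MMP8 by 1.40 ± 0.30, and MMP15 fell too. In plasminogen activation 5 of 10 members rose and 1 fell. The urokinase receptor PLAUR had 692, 607 and 978 TPM with siSOX10_2 and 47.4, 44.0 and 31.5 TPM with siCNTL (4.17 ± 0.23, adjusted p = 7.51e-05). SERPINE2, an inhibitor of plasminogen activators, fell to 665, 606 and 376 TPM with siSOX10_2, against 927, 1024 and 759 TPM with siCNTL.

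Actin, caveola and Hippo pathway genes rose together. Of 22 contractile and actin genes 15 rose and 0 fell, with a median of 1.01. Nonmuscle myosin heavy chain (MYH9) had 95.4, 73.5 and 109.9 TPM with siSOX10_2 and 16.9, 22.1 and 24.4 TPM with siCNTL (2.08 ± 0.17, adjusted p = 5.91e-05). Smoothelin (SMTN) rose by 2.83 ± 0.17 and tropomyosin (TPM1) by 2.02 ± 0.15. Of 7 caveola genes 5 rose, led by CAV1, which forms the caveolar coat, at 170.5, 161 and 369 TPM with siSOX10_2 and 19.8, 16.7 and 18.5 TPM with siCNTL. Of 26 targets of the Hippo pathway effectors YAP and TAZ 16 rose and 1 fell (FOXF2, -0.99 ± 0.21), and 11, 13 and 17 rose without batches 1, 2 and 3. AMOTL2, an angiomotin that YAP induces, had 41.6, 31.6 and 57.8 TPM with siSOX10_2 and 3.94, 4.50 and 5.66 TPM with siCNTL (2.94 ± 0.20, adjusted p = 2.01e-05). CCN1, a secreted YAP target, had 72.6, 75.4 and 342 TPM with siSOX10_2 and 7.84, 5.86 and 5.57 TPM with siCNTL. Its siSOX10_2 library of batch 3 stood far above the others, and the call (adjusted p = 0.0249) was lost without batch 1 (0.0599) and without batch 2 (0.268).

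Keratins, filament proteins of epithelia and hair, rose in 6 of 7 tested genes. KRT81 had 55.0, 53.5 and 96.2 TPM with siSOX10_2 and at most 0.109 TPM with siCNTL, and KRT86 had 10.7, 11.4 and 18.0 TPM with siSOX10_2 and at most 0.297 TPM with siCNTL. These hair keratins are near-identical, so reads may be split between them. KRT15 had 7.37, 8.89 and 13.5 TPM with siSOX10_2 and was listed at 0 in each siCNTL library. The summed TPM of 10 epithelial and keratinocyte markers was 279.8 to 358 with siSOX10_2 and 100 to 196 with siCNTL, while the basal keratinocyte markers KRT5 and TP63 were at 0 in all 6 libraries.

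Growth factor pathways changed at several levels. In the TGF-beta list 13 of 21 members rose and 2 fell. SMAD3, a signal transducer of the pathway, had 37.8, 33.7 and 41.6 TPM with siSOX10_2 and 3.99, 3.54 and 3.15 TPM with siCNTL (3.08 ± 0.20, adjusted p = 1.49e-05). The activin subunit INHBA rose by 2.73. The members that fell were the co-receptor TGFBR3 and the pseudoreceptor BAMBI, whose call (adjusted p = 0.0453) was lost in 8 alternatives. In the BMP list the ID genes, inhibitors of helix-loop-helix factors, stood out. ID1 had 280, 206 and 239 TPM with siSOX10_2 and 8.11, 8.85 and 9.17 TPM with siCNTL (4.63 ± 0.16, adjusted p = 4.12e-07). ID3 rose by 2.48 ± 0.13 and ID2 by 1.55, and the transducer SMAD9 fell by 1.13 ± 0.20.

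Wnt factors split, with 7 of 23 higher (30.4%, against 19.1% of all genes) and 6 lower (26.1%, against 11.8%). WNT5B, a ligand, had 33.0, 29.7 and 67.6 TPM with siSOX10_2 and 1.84, 2.01 and 2.80 TPM with siCNTL (3.70 ± 0.23, adjusted p = 1.03e-05). Beta-catenin (CTNNB1) fell to 524, 505 and 317 TPM with siSOX10_2, against 1322, 1576 and 1378 TPM with siCNTL (-1.70 ± 0.15, adjusted p = 1.03e-04). LEF1, its nuclear partner, fell by 1.02 on the log2 scale. Axon guidance genes rose in 13 of 25 members and fell in 2, SEMA6A and SEMA5A. SEMA5A lost its call without batch 3 (adjusted p = 0.0668). The receptor NRP1 had 146, 129.5 and 150.0 TPM with siSOX10_2 and 5.34, 5.67 and 3.92 TPM with siCNTL (4.59 ± 0.18, adjusted p = 8.37e-07). Of 16 receptor tyrosine kinases 8 rose, among them AXL, FLT1 and FGFR1, and 3 fell, namely ERBB3, TYRO3 and ROR1.

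Output genes of the MAPK pathway, which mutant BRAF drives in many melanomas, moved both ways. Of 22 members 7 rose (31.8%, against 19.1% of all genes) and 4 fell (18.2%, against 11.8%). Cyclin D1 (CCND1) had 511, 496 and 807 TPM with siSOX10_2 and 136, 164 and 182 TPM with siCNTL (1.88 ± 0.13, adjusted p = 2.28e-05). The members that fell were MYC, ETV4, ETV5 and the phosphatase DUSP2. MYC had 82.2, 70.7 and 70.3 TPM with siSOX10_2, against 129.7, 152 and 156 TPM with siCNTL (-0.96 ± 0.14, adjusted p = 0.00113). Of 12 AP-1 factors 5 rose, with FOSL1, FOSL2 and JUN first, and FOS and MAFF fell.

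Inflammatory cytokines had the highest median of the 57 lists. Of 15 NF-kB cytokines and chemokines 13 rose and 1 fell, with a median of 2.88 and batch medians of 2.46, 2.84 and 3.39. At least 12 rose without any 1 batch. IL1B had 611, 550.2 and 818 TPM with siSOX10_2, against 1.09, 0.126 and 0.673 TPM with siCNTL (8.69 ± 0.19, adjusted p = 2.93e-08). The chemokine CCL5 had 112, 95.8 and 188 TPM with siSOX10_2 and at most 0.415 TPM with siCNTL. IL6 (named after its values were seen) had 42.6, 38.9 and 52.8 TPM with siSOX10_2 and 4.97, 4.56 and 1.87 TPM with siCNTL (3.31 ± 0.29, adjusted p = 1.38e-04). CXCL8 had 823, 733 and 1572 TPM with siSOX10_2 and 25.5, 25.2 and 8.70 TPM with siCNTL. It was high in each siSOX10_2 library, but its difference of 4.96, 4.81 and 7.34 in batches 1, 2 and 3 left the call (5.70 ± 0.72, adjusted p = 0.0285) dependent on single batches. The adjusted p was 0.128 without batch 1 and 0.197 without batch 2. The member that fell was the membrane-bound chemokine CX3CL1, which stayed under 4 TPM and lost its call without batch 1 (adjusted p = 0.150). Subunits and feedback genes of NF-kB rose in 15 of 22 tested members, and by less, with a median of 0.81. NFKBIA, the inhibitor that NF-kB induces, had 105, 98.3 and 150.1 TPM with siSOX10_2 and 37.1, 35.0 and 68.0 TPM with siCNTL (1.36 ± 0.14, adjusted p = 1.75e-04).

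Prostaglandin genes changed in both directions, with 7 of 14 members higher and 5 lower, and with 5 higher and 6 lower under both median-of-ratios scaling and quantile normalization. The synthase PTGES, which makes prostaglandin E2, had 1171, 1057 and 1011 TPM with siSOX10_2, against 8.39, 5.98 and 7.22 TPM with siCNTL (adjusted p = 1.23e-08). The cyclooxygenase PTGS2 had 11.6, 9.20 and 9.31 TPM with siSOX10_2 and at most 1.08 TPM with siCNTL (2.76 ± 0.28, adjusted p = 1.74e-04). HPGD, which breaks prostaglandin E2 down, had 2.91, 2.53 and 0.931 TPM with siSOX10_2, against 30.3, 29.2 and 28.9 TPM with siCNTL (-3.35 ± 0.25, adjusted p = 2.99e-05). The synthases of thromboxane (TBXAS1) and prostacyclin (PTGIS), the exporter ABCC4 and the phospholipase PLA2G4A fell too.

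Of 32 type I interferon-stimulated genes 9 rose (28.1%, against 19.1% of all genes) and 2 fell (6.25%, against 11.8% of all genes), with a median of 0.21. BST2 had 466, 429 and 210 TPM with siSOX10_2 and 53.1, 54.6 and 28.1 TPM with siCNTL (2.97 ± 0.12, adjusted p = 1.08e-06). IFITM1, which restricts virus entry, had 479, 452 and 249 TPM with siSOX10_2 and 82.1, 95.2 and 34.4 TPM with siCNTL (2.53 ± 0.14, adjusted p = 5.91e-06). IFITM1 has near-identical relatives among which reads may be split. IFI35 fell to 82.6, 82.5 and 32.5 TPM with siSOX10_2, against 175, 173 and 114 TPM with siCNTL, and HERC6 fell as well. The call of HERC6 was lost without batch 2 (adjusted p = 0.108) and without batch 3 (0.0778). Of 14 sensors of double-stranded RNA and their mediators 6 rose, led by IRF7, at 18.5, 17.2 and 10.7 TPM with siSOX10_2 and 4.38, 6.40 and 3.59 TPM with siCNTL (adjusted p = 0.0011), and without batch 1 only 3 did. The list of interferon gamma and IRF1 targets had 18 tested members, of which 10 rose and GBP2 fell. TNFSF10, the death ligand TRAIL, had 33.5, 39.8 and 12.5 TPM with siSOX10_2 and 2.70, 5.26 and 2.90 TPM with siCNTL (2.57 ± 0.28, adjusted p = 2.65e-04). Without batch 1 this count was 5 and without batch 2 it was 7. Of 22 genes of MHC class I presentation 6 rose (27.3%, against 19.1% of all genes). The peptidase ERAP1, which trims peptides, rose by 1.43 ± 0.18, and the chaperone TAPBP by 0.76 ± 0.13. HLA-B had 294, 771 and 524 TPM with siSOX10_2 and 128, 125 and 263 TPM with siCNTL, and it was not called (adjusted p = 0.0529).

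Most mitotic genes rose. Of 32 genes of G2/M and mitosis 29 rose and 0 fell, and 27 rose under median-of-ratios scaling. The median was 0.86, with batch medians of 0.94, 0.92 and 0.66, and members lay between -0.28 and 1.59. Topoisomerase TOP2A had 124, 113 and 116 TPM with siSOX10_2 and 37.3, 45.2 and 64.1 TPM with siCNTL (1.29 ± 0.17, adjusted p = 7.38e-04). Its spread lay in siCNTL, which was highest in batch 3. UBE2C, an enzyme of mitotic exit, had 533, 473 and 624 TPM with siSOX10_2, against 213.2, 173 and 317 TPM with siCNTL (1.25 ± 0.13, adjusted p = 1.71e-04). Genes of G1/S and DNA replication rose in 8 of 34 members (23.5%, against 19.1% of all genes) and fell in 2 (MCM3 and CCNE1), led by the ribonucleotide reductase subunit RRM2 (1.64 ± 0.13). Under median-of-ratios scaling 5 of the 34 rose, and without batch 1, 3 did. Of 22 CDK inhibitors, D cyclins and p53 targets 11 rose and 2 fell. The CDK inhibitor CDKN2C had 57.2, 46.7 and 68.9 TPM with siSOX10_2 and 5.90, 8.04 and 16.02 TPM with siCNTL (2.51 ± 0.22, adjusted p = 7.04e-05). CDKN1A (p21), named after its values were seen, had 98.8, 112 and 107 TPM with siSOX10_2 and 30.1, 39.2 and 28.4 TPM with siCNTL (1.68 ± 0.14, adjusted p = 6.40e-05). The members that fell were the CDK inhibitor CDKN1C and the stress cytokine GDF15. In the BCL2 family 3 of 17 members rose (17.6%, against 19.1% of all genes) and 1 fell (5.88%, against 11.8%), both below the shares of all genes. MCL1 rose by 1.42. BCL2A1, a survival gene that MITF is known to drive, was the member that fell. It had 58.3, 57.9 and 79.3 TPM with siSOX10_2, against 245, 197 and 160.1 TPM with siCNTL.

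Of 78 cytosolic ribosomal protein genes 31 fell (39.7%, against 11.8% of all genes) and 0 rose, and 54 of the 78 were lower in every batch. RPL5 had 558, 577 and 479 TPM with siSOX10_2, against 1174, 968 and 877 TPM with siCNTL (-0.90 ± 0.11, adjusted p = 5.26e-04). RPS24 (-0.95 ± 0.11) and RPS12 (-0.93 ± 0.14) were alike. Ribosomal protein genes have many processed pseudogenes with which reads may be shared. The size of this group depended on scaling and batch: 42 fell under median-of-ratios scaling, where 2297 of all 14776 genes were called lower, and 15 under quantile normalization, where 2242 were, and 16, 21 and 38 fell without batches 1, 2 and 3. Of 77 mitochondrial ribosomal protein genes 32 fell (41.6%) and 1 rose (MRPL33, whose call was lost in 6 alternatives). Without batches 1, 2 and 3, 14, 19 and 30 of the 77 fell, and 45 did under median-of-ratios scaling and 38 under quantile normalization. MRPS25 had 70.1, 81.5 and 49.1 TPM with siSOX10_2 and 181, 201 and 199 TPM with siCNTL (-1.55 ± 0.16, adjusted p = 1.90e-04).

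Nuclear genes of the respiratory chain fell in more than 1 complex. Of 37 subunits of complex I 23 fell and 0 rose, with a median of -0.41. Without batches 1, 2 and 3, 11, 18 and 20 of the 37 fell, where 1124, 1466 and 1710 of all genes tested did. NDUFB9 had 499, 509 and 516 TPM with siSOX10_2, against 1239, 1086 and 1096 TPM with siCNTL (-1.16 ± 0.11, adjusted p = 1.15e-04). Of 38 nuclear genes of complexes II to V 30 fell (78.9%) and 0 rose, with a median of -0.57 and batch medians of -0.66, -0.47 and -0.65. The ATP synthase subunit ATP5MC3 had 723, 693 and 694 TPM with siSOX10_2, against 1567, 1406 and 1443 TPM with siCNTL (-1.06 ± 0.10, adjusted p = 1.39e-04). Its difference was -1.11, -1.02 and -1.06 in batches 1, 2 and 3. Without batches 1, 2 and 3, 21, 31 and 27 of the 38 fell. Of the 13 genes encoded in mitochondrial DNA 2 fell, MT-CYB and MT-CO1, and neither call held in all alternatives.

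Lysosomal genes fell beside the melanosome genes, with which they share a route of biogenesis. Of 46 lysosome and V-ATPase genes 28 fell (60.9%) and 2 rose, and 33 were lower in every batch. ASAH1, the acid ceramidase that MITF is known to drive, had 254, 251 and 120 TPM with siSOX10_2, against 838, 819 and 591 TPM with siCNTL (-1.90 ± 0.14, adjusted p = 2.99e-05). The phosphatase ACP5 fell by 2.23 ± 0.24 and cathepsin S (CTSS) by 1.62 ± 0.23. The members that rose were the cholesterol transporter NPC1, at 37.1, 39.2 and 55.8 TPM with siSOX10_2 and 14.9, 19.9 and 14.3 TPM with siCNTL, and CTSB, whose call was lost in 5 alternatives. Without any 1 batch, 20 to 26 members fell.

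Hypoxia and glycolysis genes rose in 15 of 31 members and fell in 1 (PFKM), with batch medians of 0.65, 0.21 and 0.90. ANGPTL4, a lipase inhibitor, had 535, 428 and 812 TPM with siSOX10_2 and 11.0, 10.5 and 15.0 TPM with siCNTL (5.46 ± 0.14, adjusted p = 7.01e-08). The carbonic anhydrase CA9 had 64.6, 62.2 and 96.2 TPM with siSOX10_2 and 4.68, 5.11 and 5.06 TPM with siCNTL (3.63 ± 0.19, adjusted p = 4.43e-06). The glucose transporter SLC2A1 had 383, 416 and 638 TPM with siSOX10_2, against 121, 115 and 68.6 TPM with siCNTL, and its call (adjusted p = 0.0160) was lost without batch 2 (0.0705). Under median-of-ratios scaling 10 of the 31 rose and 2 fell.

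Of 27 genes of ATF4 and amino acid stress 5 rose (18.5%, against 19.1% of all genes) and 6 fell (22.2%, against 11.8%). SLC7A5 and SLC3A2, which together form the large neutral amino acid transporter, fell. SLC7A5 had 124, 135 and 67.0 TPM with siSOX10_2 and 312, 404 and 361 TPM with siCNTL (-1.77 ± 0.20, adjusted p = 8.11e-04). PSAT1, an enzyme of serine synthesis, had 82.0, 87.1 and 35.7 TPM with siSOX10_2 and 252, 297 and 158 TPM with siCNTL (-1.83 ± 0.14, adjusted p = 3.37e-05). The transcription factor CEBPB rose by 1.32. Lists with few calls or calls in both directions were NRF2 targets (7 of 23 higher, 4 lower), cholesterol synthesis (5 of 24 higher, 5 lower), iron handling (1 of 19 higher, 4 lower), the unfolded protein response (3 of 22 higher, 3 lower), cytosolic chaperones (3 of 24 higher, 3 lower), proteasome subunits (1 of 33 higher, 3 lower) and splicing factors (7 of 41 higher, 2 lower). Shares of the last 4 lists lay below the share of all genes called.

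**Figure D4:**
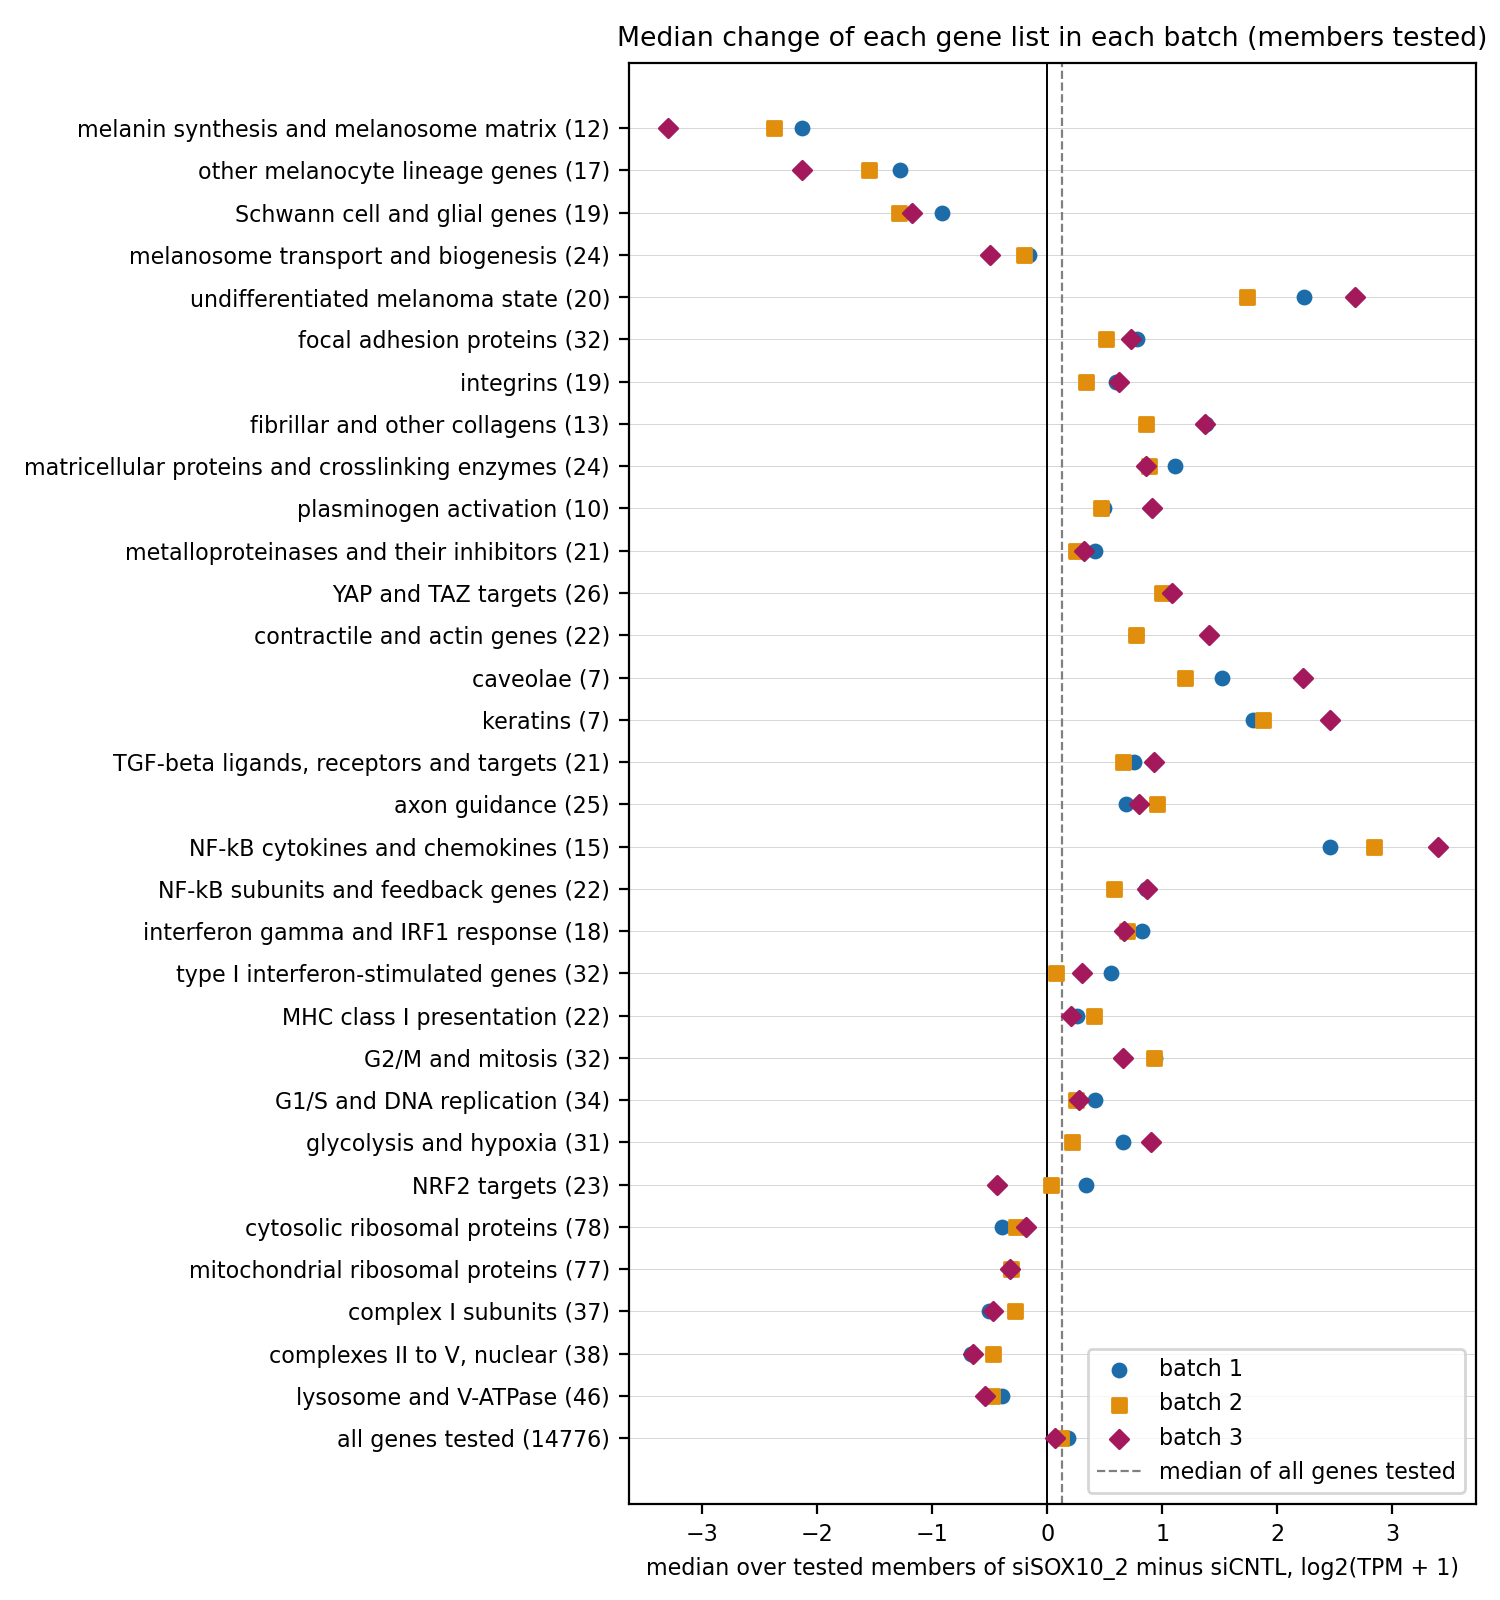
Median over the tested members of each list of the siSOX10_2 minus siCNTL difference (horizontal axis, log2(TPM + 1)) in batches 1, 2 and 3, with the number of tested members beside each name and the median of all genes tested (0.12) as a dashed line. Melanin synthesis lies lowest (-2.14, -2.38 and -3.30) and NF-kB cytokines lie highest (2.46, 2.84 and 3.39) in each of the batches.

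Whether the response differed between batches was tested as the difference between batch 3 and the mean of batches 1 and 2. That split was chosen with earlier results of these data known, so its p-values cannot be read as those of a split set beforehand. This fit has 1 residual degree of freedom, and it called 167 genes (1.13%), 42 higher in batch 3 (0.284%) and 125 lower (0.846%). The count was unstable, with 15 genes under median-of-ratios scaling, and with 0 without a filter on low values (3601 at an unadjusted p under 0.05) and 0 without limma's trend and robust options (1255). Of the 167, 112 were not called in the main comparison. There 35 had fallen, and all 35 fell further in batch 3. A further 20 had risen, of which 14 rose further in batch 3.

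Several melanocyte genes were among the 167. The melanin synthesis list gave 6 of its 12 members, all lower in batch 3. The extra difference was -2.44 ± 0.22 for DCT, -1.91 ± 0.24 for TYR and -1.36 ± 0.22 for PMEL, on the log2 scale. MITF differed by -2.13 ± 0.26. Under median-of-ratios scaling DCT and MITF stayed under 0.05 (adjusted p = 0.0326 and 0.0478), while TYR (0.0569), PMEL (0.114), MLANA (0.0833), TRPM1 (0.193) and GPNMB (0.144) did not. SOX10 itself, which was also lower in batch 3, missed the threshold (-1.43 ± 0.41, adjusted p = 0.0929). In the other direction CXCL8 differed by 2.46 ± 0.26, CCN1 by 2.44 ± 0.35 and SLC2A3, a glucose transporter, by 1.91 ± 0.27. Under that scaling CXCL8 and SLC2A3 stayed under 0.05 and CCN1 did not (adjusted p = 0.0646). ANKRD37, a hypoxia-induced gene, was lower with siSOX10_2 in batches 1 and 2 (-0.64 and -0.67) and higher in batch 3 (1.43). IL1B, PTGES, ITGA1, ITGA3 and CD44 were not among the 167. Batch 3 differs from the others in siCNTL too, so batch and strength of knockdown cannot be told apart.

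The SOX10 siRNAs were compared directly, batch by batch, with no control library in the test. Of 14723 genes tested, 1087 (7.38%) differed between siSOX10_2 and siSOX10_1, 722 higher (4.90%) and 365 lower (2.48%) with siSOX10_2. SOX10 itself differed by -0.10 ± 0.20 (adjusted p = 0.794), with 11.8, 8.95 and 4.24 TPM with siSOX10_2 and 12.8, 12.8 and 3.32 TPM with siSOX10_1. The count rested on the pairing by batch. Without the batch in the model 33 genes were called, without batches 1, 2 and 3 the count was 687, 346 and 721, and without trend and robust options 0 (3291 at an unadjusted p under 0.05).

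NF-kB cytokines were higher with siSOX10_2 in 11 of 15 tested members and lower in 1, with a median of 1.23, against 0.08 over all genes. IL1B had 611, 550.2 and 818 TPM with siSOX10_2 and 201, 198 and 259 TPM with siSOX10_1 (1.57 ± 0.07, adjusted p = 9.33e-05). CXCL8 had 823, 733 and 1572 TPM with siSOX10_2 and 362, 328 and 564 TPM with siSOX10_1 (1.27 ± 0.08, adjusted p = 4.50e-04). IL6 had 42.6, 38.9 and 52.8 TPM with siSOX10_2, against 10.7, 13.3 and 19.3 TPM with siSOX10_1 (adjusted p = 0.00209). Each was higher with siSOX10_2 in every batch. With all 12 libraries in the fit 8 of the 15 were higher, and CXCL8 lost its call (adjusted p = 0.215). Without the batch in the model 2 were higher. CSF1, a macrophage growth factor, was lower, at 33.5, 33.8 and 35.2 TPM with siSOX10_2 and 48.3, 44.6 and 53.8 TPM with siSOX10_1 (adjusted p = 0.0345, and 0.212 with all 12 libraries). IRF1 was higher with siSOX10_2 by 0.85 ± 0.12 (adjusted p = 0.0103), at 102, 82.9 and 63.3 TPM, against 64.6, 49.7 and 27.3 TPM with siSOX10_1.

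Targets of NRF2, the regulator of antioxidant genes, went the other way. Of 23 members 14 were lower with siSOX10_2 than with siSOX10_1 and 0 higher, with a median of -0.68. Against siCNTL, 7 of the 23 rose with siSOX10_2 and 4 fell. With all 12 libraries in the fit 8 were lower, and without the batch 2 were. Thioredoxin reductase (TXNRD1) had 485, 523 and 419 TPM with siSOX10_2 and 869, 920.4 and 904 TPM with siSOX10_1 (-0.92 ± 0.08, adjusted p = 0.00161). With siCNTL it had 243, 288 and 379 TPM. PGD, an enzyme of the pentose phosphate pathway, was lower with siSOX10_2 (-0.79 ± 0.07 on the log2 scale). The ferritin light chain FTL had 19315, 16412 and 9124 TPM with siSOX10_2 and 38904, 35430 and 30299 TPM with siSOX10_1 (-1.28 ± 0.17, adjusted p = 0.0397). In siCNTL libraries FTL had 11380, 12188 and 12137 TPM. FTL missed the threshold under median-of-ratios scaling (adjusted p = 0.0580). Of 31 glycolysis and hypoxia genes 11 were higher and 2 lower with siSOX10_2, but only 2 were higher and 0 lower with all 12 libraries in the fit, and 1 was higher without the batch. Of the called ones PFKFB4, which sets glycolytic flux, differed most, at 72.8, 74.3 and 71.1 TPM with siSOX10_2 and 29.4, 28.2 and 31.6 TPM with siSOX10_1. Of the list members named here, IL1B, TXNRD1, PGD and PFKFB4 kept an adjusted p under 0.05 without the batch in the model. Melanin synthesis genes differed in 2 of 11 members, both lower with siSOX10_2, with a median of -0.19.

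**Figure D5:**
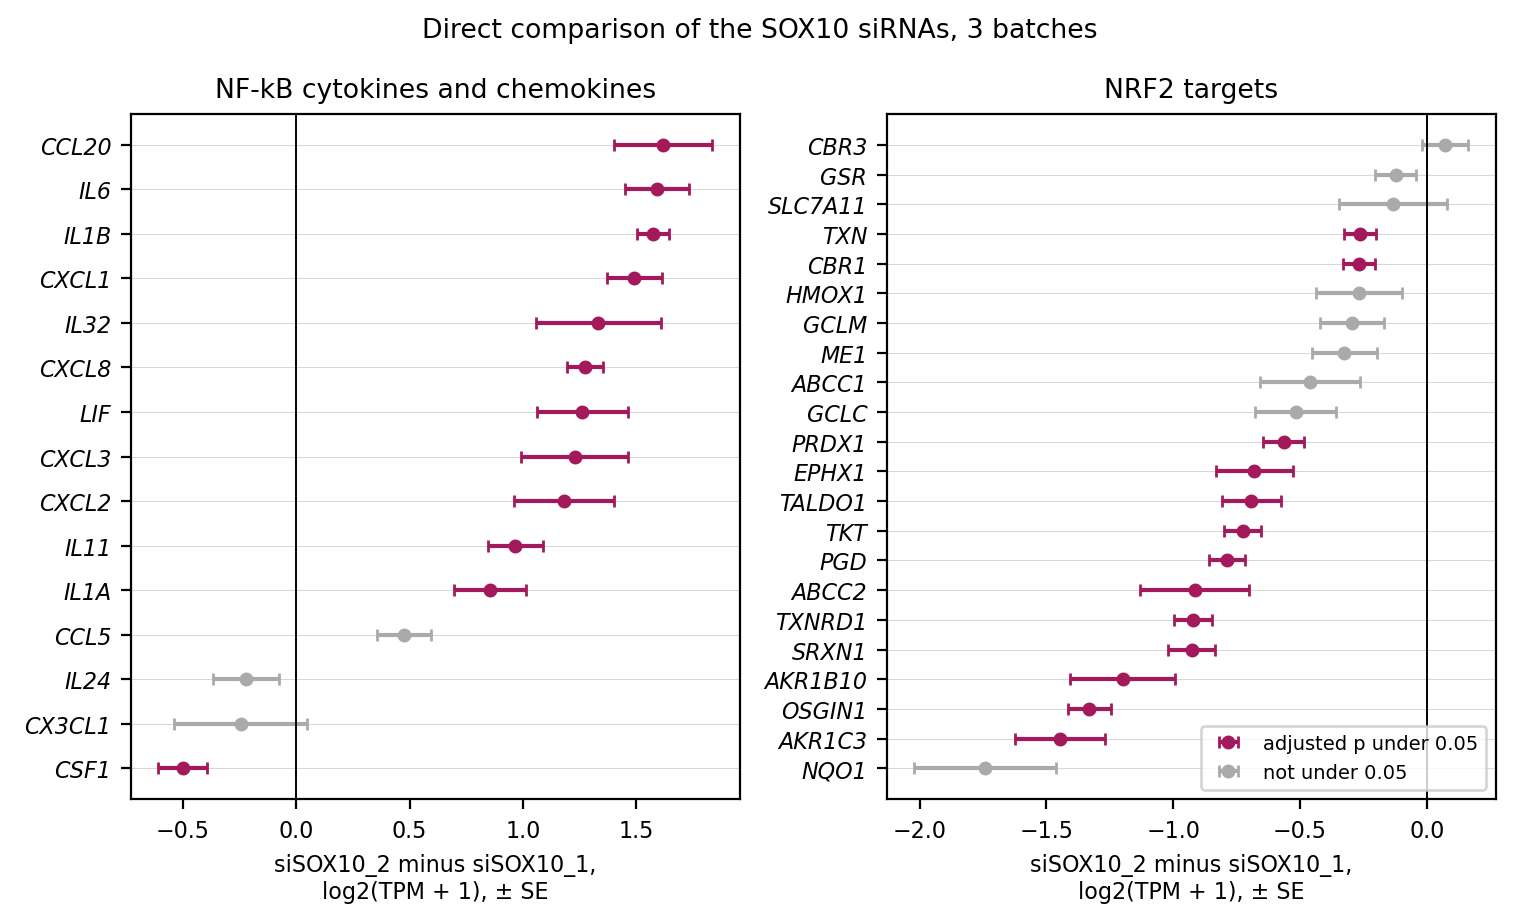
Difference between siSOX10_2 and siSOX10_1 (horizontal axis, log2(TPM + 1), points with standard errors) for 15 NF-kB cytokines and chemokines and the NRF2 targets reported here, with called genes in colour and the rest in grey. Of the cytokines 11 lie right of 0 in colour and CSF1 lies left, and the NRF2 targets in colour all lie left of 0.

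Markers of other cell types moved with the groups. The summed TPM of 11 leukocyte markers was 72.3 to 80.1 with siSOX10_2 and 39.2 to 49.8 with siCNTL. CD68, a lysosomal protein, made up most of it, while 8 of the 11 were below 1 TPM in all 6 libraries. Endothelial markers summed to 2.86 to 8.57 TPM with siSOX10_2 and 0.246 to 1.48 TPM with siCNTL, with CLDN5 at 0. Fibroblast markers summed to 73.2 to 83.9 TPM with siSOX10_2 and 177.6 to 206.6 TPM with siCNTL, mostly LUM. Of the 4 fibroblast markers tested, 2 rose, COL1A1 among them, and only 1, LUM, fell. The 10 epithelial and keratinocyte markers summed to 279.8 to 358 TPM with siSOX10_2 and 100.05 to 196 TPM with siCNTL, and 5 of them were below 1 TPM in all 6 libraries. Their part in the results was not tested. In bulk RNA, fewer cells of a kind and less RNA per cell cannot be told apart.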

How the data were processed

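RNA-seq was deposited as 1 table of TPM for 61587 genes, in which each library sums to 1000000. TPM were made by the authors, and per the submitters' processing notes bcl2fastq and DRAGEN were used, with versions, annotation and use of strand not given in the sources used here. Per the labels' protocols, libraries were made from full-length cDNA by a low-input kit and tagmentation. TPM are relative, so strong increases lower all other values, and no counting interval can be given. Gene coordinates are the table's, on GRCh38.

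Tests used log2(TPM + 1) of the 14776 genes that reached 1 TPM in 3 of the 6 libraries. The test was limma 3.58.1 in R 4.3.3 with group and batch as terms (2 residual degrees of freedom), empirical Bayes with trend and robust options, and Benjamini-Hochberg adjustment over all genes at 0.05. Libraries were paired by replicate number, which the labels call a batch. Within batches 1, 2 and 3, the deviations of the 2 groups' libraries correlated at 0.174, -0.026 and 0.351 (across genes), and those of different batches at -0.346 to 0.277. The pairing rests on the labels. The difference between batch 3 and batches 1 and 2, and siSOX10_2 against siSOX10_1, were fitted in the same way. Without read counts no count-based test could be used.

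The comparison, the 57 gene lists and the rule for named genes were chosen with earlier results of these data known. The rule names the genes of the title, the 12 highest and 12 lowest called genes, up to 4 called members a list, called members against their list's majority where 5 or fewer, the 4 highest and 4 lowest genes of the other 2 tests, and genes whose promoters are printed. Of 1437 list genes 1433 were in the table and 1199 were tested. Lists are described by counts and medians, with no set test. Promoters came from the RefSeq table (GRCh38.p14). In simulated data for siSOX10_2 vs siCNTL (13992 to 14012 genes, 200 changed, 5 runs), the fit recovered 22.6% of 2-fold changes and 72% of 4-fold changes and made 0.8 false calls a run. In the data 4566 genes were called, and the adjustment is stricter where fewer genes change. The simulated shares therefore do not give the share of changes missed here. There were 21 alternative settings, for the batch term, filters, pseudocounts, scaling, thresholds and limma options, for left-out libraries and batches, all 12 libraries in the fit and untreated cells as the control. With batch as a term, leaving out 1 library gives the same difference as leaving out its whole batch. Counts of alternatives in which a call was lost therefore count such a check more than once. Some genes of the lists and of the rule are counted but not reported here by name.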

Additional observations from a re-analysis of the deposited data

Results flagged for a closer look

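The direct comparison of siSOX10_2 with siSOX10_1 called 1087 genes (limma, adjusted p under 0.05), and its 4 highest and 4 lowest named genes are given here because the siRNAs differed in a test of the difference itself. C15orf48 had 172, 171 and 381 TPM with siSOX10_2 and 20.5, 23.5 and 62.6 TPM with siSOX10_1, a log2 difference of 2.80 (adjusted p = 3.61e-05). SERPINB7, a serine protease inhibitor, had 7.77, 11.2 and 34.9 TPM with siSOX10_2 and 0.696, 1.04 and 2.02 TPM with siSOX10_1 (2.84). The small nucleolar RNA SNORA62 had 10.4, 10.8 and 28.5 TPM with siSOX10_2 and was listed at 0 in each siSOX10_1 library (fitted difference 3.98, which depends on the pseudocount). It was also listed at 0, 0 and 39.5 TPM with siCNTL. SNORA70 had 12.9, 53.1 and 9.89 TPM with siSOX10_2 and 0, 11.7 and 0 TPM with siSOX10_1 (3.11). SCG2, a secretogranin, had 11.5, 13.9 and 2.47 TPM with siSOX10_2 and 56.3, 52.0 and 24.7 TPM with siSOX10_1 (-2.30). TXNIP, an inhibitor of thioredoxin, had 5.88, 6.56 and 192 TPM with siSOX10_2 and 29.1, 37.1 and 452 TPM with siSOX10_1 (-1.90), with batch 3 far above the others in both groups. SCML1 had 8.29, 5.00 and 2.69 TPM with siSOX10_2 and 22.8, 20.2 and 19.0 TPM with siSOX10_1 (-1.87). A2M, a protease inhibitor, had 9.72, 8.12 and 3.41 TPM with siSOX10_2 and 22.1, 20.1 and 23.7 TPM with siSOX10_1 (-1.60).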

How the results depend on the processing

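The 4566 calls of siSOX10_2 against siCNTL became 2731 with no filter on low values, 2484 at an adjusted p under 0.01 and 2030 at a fold of at least 2. Leaving out 1 library gave 2673 to 4749, with 2673 without siSOX10_2 replicate 1 and 2755 without siCNTL replicate 1, and leaving out a batch gave 2696 to 4771. Without the replicate block by batch 3729 genes were called, 3699 of them shared, and with untreated cells as the control 4791. The SOX10 difference stayed called in all 21 alternatives. The 167 genes of the batch 3 test became 15 under median-of-ratios scaling, 109 with a pseudocount of 5, 325 at 5 TPM or more, 0 with no filter and 0 without trend and robust options. The 1087 genes between the siRNAs became 33 without the replicate block, 525 with all 12 libraries in the fit, 70 with no filter, 0 without trend and robust options, 190 at an adjusted p under 0.01, 267 at a fold of at least 2, 336 to 740 without 1 library, and 687, 346 and 721 without batches 1, 2 and 3. The cause of these shifts was not tested. Of 288 named genes 175 kept their side of the threshold in every alternative run. MT-CO1 alone changed sign, at 0.17 with untreated cells as the control (adjusted p = 0.398). TPM keep no depth, so low genes carry an error that cannot be given.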
